A study of Mus musculus with 6 samples.

Results

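The genes described here encode the subunits of the receptors for the transmitters glutamate, GABA and glycine. They are all protein-coding genes of the count table whose symbols belong to the *Gria*, *Grik*, *Grin*, *Grm*, *Gabra*, *Gabrb*, *Gabrg*, *Gabrr*, *Gabbr* and *Glra* series, with *Gabrd*, *Gabre*, *Gabrp*, *Gabrq* and *Glrb*. The table held 49 such genes among 54532 rows, of which 22046 are protein-coding. mRNA was measured in bulk from mouse cerebella at postnatal day 1. Of 6 libraries, 3 are labelled control (*Tox3f/f*, Cre-negative littermates) and 3 are labelled mutant (*Nestin-cre;Tox3f/f*, conditional knockout). Both groups carry the floxed allele of *Tox3*, a gene for a nuclear protein with a high mobility group box. The *Nestin-cre* transgene drives Cre recombinase in neural cells. It is present in all 3 mutant and in no control library, so an effect of Cre and one of the deletion cannot be told apart. The labels do not say whether a library came from 1 animal or several, and p-values measure the spread between these libraries.

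The targeted gene does not separate the groups in this table. *Tox3* was counted at 64.3, 63.0 and 64.4 CPM (counts scaled by the TMM-normalized total of the library) in control 1, 2 and 3, and at 55.3, 63.2 and 59.2 CPM in mutant 1, 2 and 3. The edgeR quasi-likelihood test gave a log2 fold change of -0.11 ± 0.06 (SE) with a Benjamini-Hochberg adjusted p of 0.252. The count covers all exons of the gene, including those outside the floxed part, so "mutant" below means a library labelled as such, and directions rest on the labels. *Atoh1*, the transcription factor of granule neuron progenitors, was counted at 31.8 ± 0.87 CPM in control and 0.36 ± 0.19 CPM in mutant libraries (SD, n = 3 each). Totals lay between 15391854 and 17178478 counts per library, at which 3 counts correspond to at most 0.196 CPM. The receptor genes took 0.321 to 0.346% of the counts in control and 0.354 to 0.367% in mutant libraries. Y-chromosome genes were counted in control 1, mutant 1 and mutant 3, at 203 to 253 CPM, and at no more than 0.13 CPM in the other libraries, so both groups hold both kinds.

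Glutamate is the main excitatory transmitter of the cerebellum, released by granule neurons, mossy fibres and climbing fibres, whereas GABA and glycine are released by Purkinje cells and interneurons. AMPA, kainate and NMDA receptors are tetrameric cation channels, GABA-A and glycine receptors are pentameric anion channels, and metabotropic glutamate and GABA-B receptors act through G proteins. Which subunits a neuron makes sets the kinetics, ion permeability and pharmacology of its receptors, and several subunits replace each other as neurons mature after birth.

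In the cerebella labelled mutant, 3 of the 43 receptor genes that could be tested were higher and 1 was lower. The kainate receptor genes *Grik1* and *Grik4* and the NMDA receptor gene *Grin2d* were each about 1.5 to 1.6 times as abundant as in control, and the kainate receptor gene *Grik2* was at 0.56 of control. To be called, a gene had to pass 0.01 in adjusted p and 0.5 in the size of its log2 fold change. Of all 17505 genes tested, 3.03% were called higher and 3.63% lower, or 6.66% in either direction, so the share of receptor genes called, 4 of 43, was near that of all genes. The remaining 39 tested receptor genes were not called, and 6 genes had too few counts for a test. Without the limit on fold, 12 receptor genes passed an adjusted p of 0.01 in the higher direction and 2 in the lower direction, where 6.55% and 7.24% of all tested genes did. The log2 fold change was above 0 for 29 of the 43, against 49.1% of all tested genes, and its median was 0.23, against -0.01 over all tested genes. In 22 receptor genes every mutant library was above every control library, and in 2 every mutant library was below, where 20.4% and 20.1% of all tested genes were so separated.

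**Figure D1:**
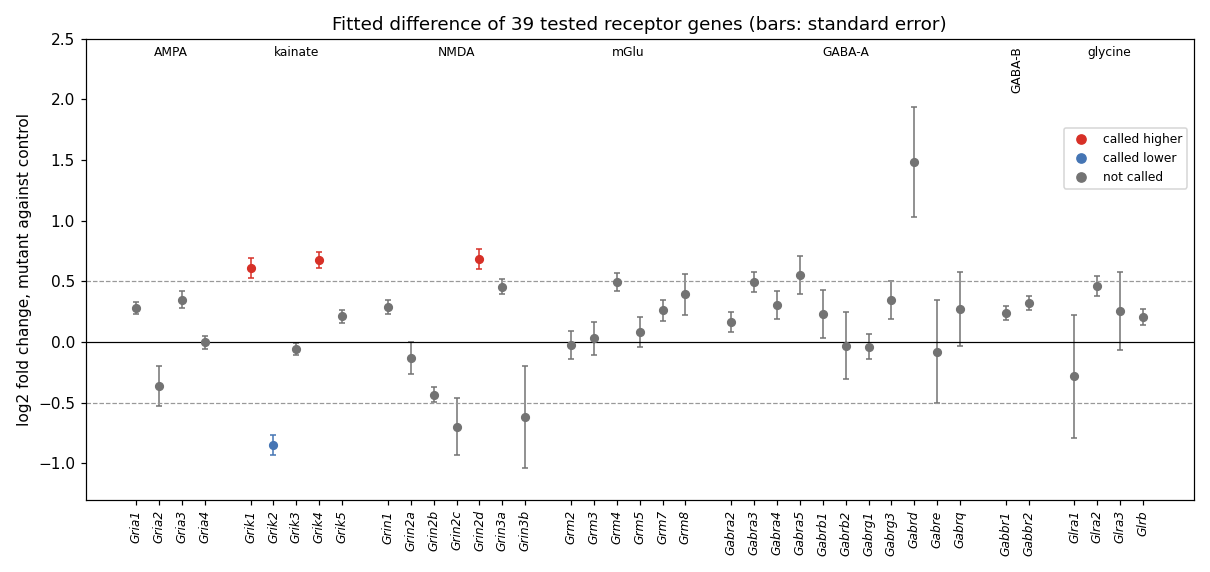
The plot of fold changes shows, for 39 of the tested receptor genes along the x axis by class, the log2 fold change of mutant against control (y axis), with bars for the standard error and dashed lines at 0.5 and -0.5. The 3 genes called higher (*Grik1*, *Grik4*, *Grin2d*) and the 1 called lower (*Grik2*) are coloured, most other points lie between 0 and 0.5, and *Gabrd*, *Grin3b*, *Gabre*, *Gabrq*, *Glra1* and *Glra3* have the widest bars.

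Marker genes of several cell types differed between the groups. All 7 markers of granule neuron progenitors were called lower, with a summed level of 986 to 1085 CPM in control and 349 to 390 CPM in mutant libraries, and 6 of 8 granule neuron markers were called lower (3290 to 3442 against 2288 to 2434 CPM). Purkinje cell markers were called higher in 5 of 10 cases (1737 to 1862 against 2321 to 2810 CPM), astrocyte and Bergmann glia markers in 3 of 7 (2449 to 2538 against 3468 to 3796 CPM), oligodendrocyte lineage markers in 5 of 7 (502 to 538 against 658 to 704 CPM) and meningeal markers in 3 of 5 (343 to 366 against 522 to 628 CPM). Of the 5 markers of the GABAergic interneuron lineage, 2 were called higher and 1 lower, with sums of 211 to 219 and 287 to 300 CPM. Sums of the remaining lists in control and mutant libraries were 96.9 to 106 and 77.2 to 80.7 CPM for glutamatergic nuclear neurons (0 of 3 called), 113 to 122 and 111 to 116 CPM for unipolar brush cells (1 of 3 higher), 67.1 to 73.3 and 87.5 to 100 CPM for microglia (1 of 5 higher), and 347 to 387 and 337 to 352 CPM for endothelium (0 of 6). For erythrocytes they were 98.6 to 106 and 82.2 to 117 CPM (0 of 5), and for choroid plexus 73.7 to 140 and 11.3 to 742 CPM (0 of 4). None of the 7 markers of hindbrain outside the cerebellum or of the 4 midbrain markers reached enough counts for a test, with sums of at most 1.5 and 2.74 CPM. *Hoxb2*, *Hoxb3*, *Hoxb4* and *Pitx3* had at most 3 counts in every library and *Foxa1* had 0. The part of these markers in the receptor results was not tested. In bulk RNA, a larger share of cells of a type and more RNA per cell cannot be told apart.

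The sequences just before the start are shown for 3 of the 4 called genes, to show the E-box, the motif bound by *Atoh1* and related factors, where it occurs. They are the 250 bases before the RefSeq start on GRCm38.p6, on the minus strand at chr10:49788755-49789004 for *Grik2*, chr9:42944372-42944621 for *Grik4* and chr7:45866682-45866931 for *Grin2d*, written 5′ to 3′ along the gene, with the letters CANNTG (the E-box) in capitals. The RefSeq starts lie 12, 122 and 11697 bases from the gene starts in the count table.
Grik2: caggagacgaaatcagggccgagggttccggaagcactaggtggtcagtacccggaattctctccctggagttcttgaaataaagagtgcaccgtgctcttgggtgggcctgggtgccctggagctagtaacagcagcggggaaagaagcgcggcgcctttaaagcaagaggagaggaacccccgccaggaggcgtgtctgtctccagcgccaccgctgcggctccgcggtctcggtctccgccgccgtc
Grik4: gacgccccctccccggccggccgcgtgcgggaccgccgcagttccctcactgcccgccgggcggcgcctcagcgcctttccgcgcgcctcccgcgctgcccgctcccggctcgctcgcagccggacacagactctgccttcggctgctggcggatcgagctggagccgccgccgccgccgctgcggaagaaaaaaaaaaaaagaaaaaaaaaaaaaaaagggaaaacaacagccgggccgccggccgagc
Grin2d: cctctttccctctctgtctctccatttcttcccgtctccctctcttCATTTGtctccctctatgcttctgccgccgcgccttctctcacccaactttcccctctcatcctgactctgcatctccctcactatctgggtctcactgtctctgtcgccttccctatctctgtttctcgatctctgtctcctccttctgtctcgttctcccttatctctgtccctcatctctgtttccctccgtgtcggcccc
CANNTG, which reads as CANNTG on both strands, occurred once in the *Grin2d* window, as the letters CATTTG, and not in those of *Grik2* and *Grik4*. CAGCTG, a form of the same motif, occurred in none of the 3. Of 32851 mouse promoter windows of this length, 66.2% held CANNTG and 13.0% held CAGCTG. Among 42 windows of 35 receptor genes, 47.6% held CANNTG and 4.76% held CAGCTG. GC content was 62.8% for *Grik2*, 69.6% for *Grik4* and 54.4% for *Grin2d*.

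Kainate receptors held 3 of the 4 calls. *Grik1*, *Grik2* and *Grik3* encode subunits that can form channels by themselves, whereas *Grik4* and *Grik5* encode high-affinity subunits that need a partner of the first kind. *Grik2* (ENSMUSG00000056073, chromosome 10, 49094833 to 49788766, minus strand, GRCm38) was counted at 134, 160.0 and 149 CPM in control 1, 2 and 3 and at 78.3, 90.2 and 77.7 CPM in mutant 1, 2 and 3. Every mutant library lay below every control library. The log2 fold change was -0.85 ± 0.08 (SE), with an adjusted p of 8.89e-05 in the edgeR quasi-likelihood test. *Grik4* (ENSMUSG00000032017, chromosome 9, 42518135 to 42944493, minus strand) was at 34.0, 33.1 and 34.8 CPM in control and 54.0, 55.5 and 53.1 CPM in mutant libraries, 2 narrow groups with no overlap. Its log2 fold change was 0.67 ± 0.07 with an adjusted p of 0.000109. *Grik1* (ENSMUSG00000022935, chromosome 16, 87895900 to 88290265, minus strand) stood at 36.8, 39.6 and 37.0 CPM in control and at 63.4, 56.2 and 53.3 CPM in mutant libraries. The groups did not overlap, mutant 1 was the highest, and the log2 fold change was 0.61 ± 0.08 (adjusted p = 0.000625). In limma on log2(FPKM + 1), where FPKM is the deposited value scaled by depth and gene length, and without a filter on low values, *Grik1* missed the threshold with 0.53 ± 0.07 and an adjusted p of 0.0104.

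The most abundant kainate receptor gene per length was *Grik5*, at 41.9, 37.4 and 39.2 FPKM in control and 46.1, 43.9 and 47.8 FPKM in mutant libraries. All 3 mutant values were above the controls, with a log2 fold change on counts of 0.21 ± 0.05 and an adjusted p of 0.0172 in edgeR, which met neither limit of a call. *Grik3* did not pass the test, with means of 189 ± 6.6 and 182 ± 5.6 CPM, a log2 fold change of -0.06 ± 0.05 and overlapping groups. Per length, *Grik2* therefore stood at 11.1 ± 1.0 FPKM in control, above *Grik1* (5.57 ± 0.23) and *Grik4* (5.65 ± 0.14), and at 6.16 ± 0.50 FPKM in mutant libraries, below both (8.53 ± 0.79 and 9.05 ± 0.16 FPKM). The ratio of *Grik1* to *Grik2* FPKM was 0.51 ± 0.03 in control and 1.39 ± 0.19 in mutant libraries, and that of *Grik4* to *Grik2* was 0.51 ± 0.05 and 1.47 ± 0.09. Both ratios were below 1 in every control library and above 1 in every mutant library.

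**Figure D2:**
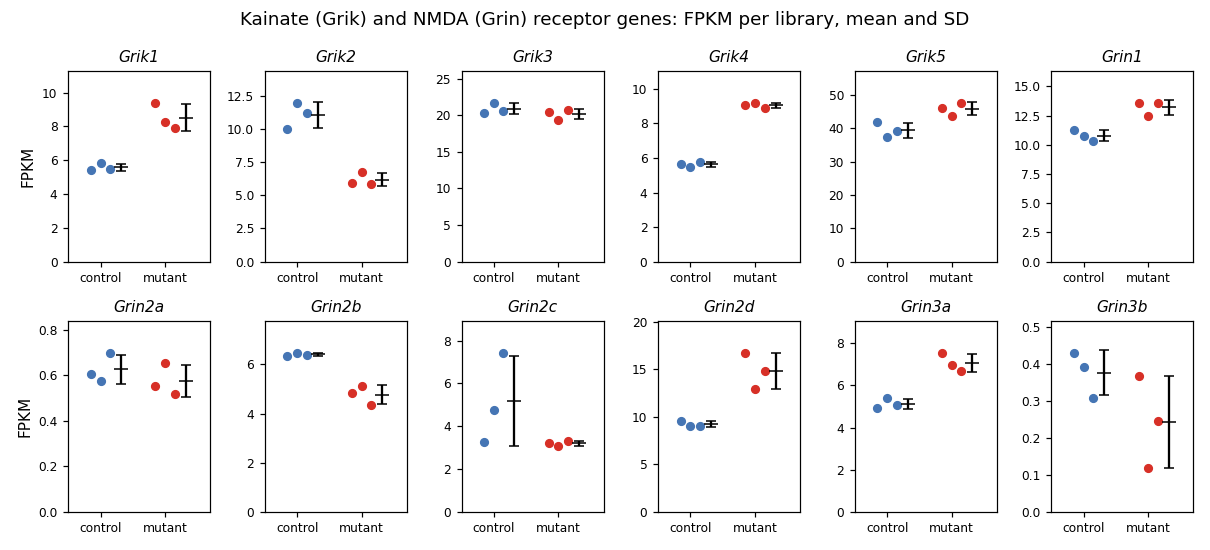
Each panel plots 1 kainate or NMDA receptor gene, with FPKM on the y axis from 0, control libraries in blue and mutant libraries in red, and the mean and SD in black beside the points. *Grik2* and *Grin2b* lie lower in all mutant libraries, *Grik1*, *Grik4*, *Grik5*, *Grin1*, *Grin2d* and *Grin3a* lie higher, and the 3 control libraries of *Grin2c* spread from 3.28 to 7.43 FPKM.

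NMDA receptors need *Grin1*, which encodes the obligatory glycine-binding subunit, and take their glutamate-binding subunits from *Grin2a* to *Grin2d*. *Grin2d* (ENSMUSG00000002771, chromosome 7, 45831883 to 45878378, minus strand) encodes a slowly deactivating subunit that is prominent in the young brain. It was counted at 64.3, 60.7 and 60.3 CPM in control 1, 2 and 3 and at 111, 87.0 and 99.1 CPM in mutant 1, 2 and 3. The mutant libraries were higher and more spread, and the log2 fold change was 0.68 ± 0.08 with an adjusted p of 0.000407 in edgeR. In limma on log2(FPKM + 1) without a filter it missed the threshold, with 0.63 ± 0.09 and an adjusted p of 0.0121. The antisense gene *Gm45441* shares 643 exon bases (9.66%) with *Grin2d* and had 5 to 15 counts per library, against 932 to 1932 for *Grin2d*.

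*Grin2b*, the other glutamate-binding subunit gene that is abundant before and around birth, was at 159.7 to 162 CPM in control and 108 to 128 CPM in mutant libraries. Its log2 fold change of -0.43 ± 0.06 had an adjusted p of 0.000944 in edgeR, but did not reach the limit of 0.5. *Grin2d* and *Grin2b* thus lay on opposite sides of 0, and the ratio of their FPKM values was 1.503, 1.395 and 1.404 in control 1, 2 and 3 and 3.45, 2.53 and 3.42 in mutant 1, 2 and 3. *Grin3a*, whose subunit lowers calcium permeability, was at 60.8 to 66.7 and 82.2 to 92.7 CPM, with a log2 fold change of 0.46 ± 0.06 and an adjusted p of 0.000813 in edgeR. *Grin1* itself was at 101 to 110 and 122 to 132 CPM, with a log2 fold change of 0.29 ± 0.06 (adjusted p = 0.00448). Neither was called, since the fold was under the limit. *Grin1* shares 13.5% of its exon bases with the antisense gene *Grin1os*, which had 55 to 95 counts per library.

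The NMDA receptor genes that mark older neurons gave no call. *Grin2a* was at 11.3 ± 1.2 CPM in control and 10.4 ± 1.3 CPM in mutant libraries (log2 fold change -0.13 ± 0.13, adjusted p = 0.520 in edgeR). *Grin2c*, the subunit of mature granule neurons, was at 16.7, 24.3 and 37.8 CPM in control and at 16.2, 15.6 and 16.8 CPM in mutant libraries. The controls were widely spread, control 1 lay within the mutant range, and the log2 fold change of -0.70 ± 0.24 had an adjusted p of 0.0549. Without control 3, the highest control, the value was -0.34 ± 0.15 (adjusted p = 0.163), and without control 1 *Grin2c* was called lower, at -0.94 ± 0.17 and an adjusted p of 0.00456. *Grin3b* was near the limit of detection, at 6 to 22 counts per library, and shares 32.1% of its exon bases with *Tmem259* (2059 to 2490 counts), so its value of -0.62 ± 0.42 is uncertain.

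**Figure D3:**
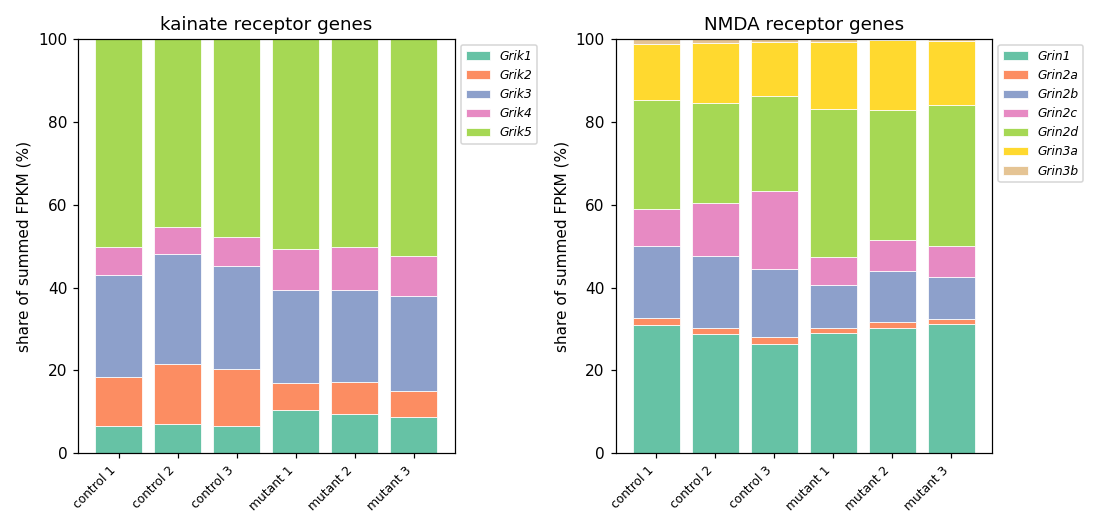
The stacked bars show, for each library, the share of each gene in the summed FPKM of the 5 kainate (left) and 7 NMDA receptor genes (right), in percent. The *Grik2* segment has a mean of 13.4% in control and 6.87% in mutant libraries, and the *Grin2d* segment 24.5% and 33.7%.

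Within their classes, the shares of these subunits moved further apart than the class totals. *Grik2* made up 11.99, 14.5 and 13.6% of kainate receptor FPKM in control 1, 2 and 3 and 6.50, 7.70 and 6.42% in mutant 1, 2 and 3. *Grik1* held 6.74 ± 0.30% and 9.50 ± 0.85%, and *Grik4* 6.83 ± 0.19% and 10.1 ± 0.41%. The share of *Grin2d* in NMDA receptor FPKM was 26.3, 24.2 and 22.9% in control and 35.7, 31.3 and 34.1% in mutant libraries, while that of *Grin2b* was 17.04 ± 0.64% and 10.9 ± 1.3%. All 5 shares were separated between the groups. An exact two-sided permutation test of 3 against 3 libraries cannot give a p below 0.1, which each of them reached, and adjusted over the 28 shares tested it was 0.187.

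AMPA receptors carry most fast excitatory transmission, and none of their 4 genes was called. *Gria1*, the most abundant per length, was at 41.2, 41.3 and 38.7 FPKM in control and 47.4, 49.0 and 51.7 FPKM in mutant libraries. The groups did not overlap, and on counts the log2 fold change was 0.28 ± 0.05 with an adjusted p of 0.00287 in edgeR. *Gria3* was similar in size of difference, at 0.35 ± 0.07 (adjusted p = 0.00464). *Gria4* had means of 164 and 163 CPM and a log2 fold change of 0.00 ± 0.05, whose sign changed between alternative fits. *Gria2*, whose edited subunit keeps AMPA receptors impermeable to calcium, was at 371, 548 and 498 CPM in control 1, 2 and 3 and at 317, 464 and 319 CPM in mutant 1, 2 and 3. The ranges overlapped, and the 3 libraries with Y-chromosome gene counts (control 1, mutant 1 and mutant 3) were the 3 lowest. The log2 fold change was -0.37 ± 0.16 (adjusted p = 0.136). It was -0.21 ± 0.04 (adjusted p = 0.00189) once the Y-chromosome gene level was a covariate in edgeR, and -0.25 ± 0.18 without control 2. Without mutant 2 it was -0.56 ± 0.13, and *Gria2* was then called lower at an adjusted p of 0.0092. The share of *Gria1* in AMPA receptor FPKM was 40.3 ± 3.1% in control and 47.4 ± 3.1% in mutant libraries with no overlap, and that of *Gria2* was 29.7 ± 4.0% and 22.3 ± 3.6% with overlap.

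Of the 8 metabotropic glutamate receptor genes, 7 were tested and none was called. *Grm3*, expressed in glia as well as neurons, was the most abundant per length, at 19.0, 25.8 and 22.9 FPKM in control and 21.2, 27.9 and 20.2 FPKM in mutant libraries. These values overlapped (log2 fold change on counts 0.03 ± 0.14). *Grm4*, the presynaptic receptor of granule neuron axons, was at 28.7, 28.9 and 31.9 CPM in control and at 40.5, 42.0 and 43.7 CPM in mutant libraries, separate groups. Its log2 fold change of 0.49 ± 0.08 had an adjusted p of 0.00148 in edgeR and lay just under the fold limit. DESeq2 placed it just over, at 0.50 ± 0.11, and it was also called without control 3 (0.55 ± 0.08), mutant 1 (0.52 ± 0.09) or mutant 2 (0.51 ± 0.09). *Grm7* and *Grm8*, presynaptic receptors like *Grm4*, gave 0.26 ± 0.09 and 0.39 ± 0.17 with adjusted p-values of 0.0519 and 0.120. *Grm2*, which marks Golgi cells, and *Grm5* gave -0.03 ± 0.12 and 0.08 ± 0.12, with overlapping groups. *Grm6*, known from retinal bipolar cells, had at most 2 counts in any library.

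GABA-A receptors had the largest number of genes, 19, of which 14 were tested and none called. *Gabra3*, *Gabra5* and *Gabrd* passed an adjusted p of 0.05 in edgeR, all higher in mutant libraries. *Gabra3*, an alpha subunit of the immature brain, was at 41.8, 42.2 and 36.5 CPM in control and 59.9, 52.0 and 57.5 CPM in mutant libraries, a clear separation. The log2 fold change was 0.49 ± 0.08 and the adjusted p 0.00228. It was called higher without control 1 (0.52 ± 0.10), control 2 (0.53 ± 0.09) or mutant 2 (0.56 ± 0.09). *Gabra5*, an alpha subunit of extrasynaptic receptors, at 7.70 to 9.44 and 9.65 to 13.6 CPM, gave 0.55 ± 0.16 with an adjusted p of 0.0288. Without mutant 2, *Gabra5* was called higher, at 0.71 ± 0.14.

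*Gabrd*, the delta subunit of extrasynaptic receptors on mature granule neurons, had the highest fold of all receptor genes on few counts. It had 11, 4 and 10 counts in control 1, 2 and 3 and 32, 14 and 29 counts in mutant 1, 2 and 3. The mutant libraries were all above the controls, and the log2 fold change of 1.49 ± 0.45 had an adjusted p of 0.0375 in edgeR. Over the 12 other fits that held *Gabrd*, the value ranged from 0.36 to 1.75, so its size is uncertain. It was called higher only without a filter on low counts. As a share of the class, *Gabra3* was separate, at 14.3 ± 1.1% of GABA-A receptor FPKM in control and 18.2 ± 1.8% in mutant libraries.

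**Figure D4:**
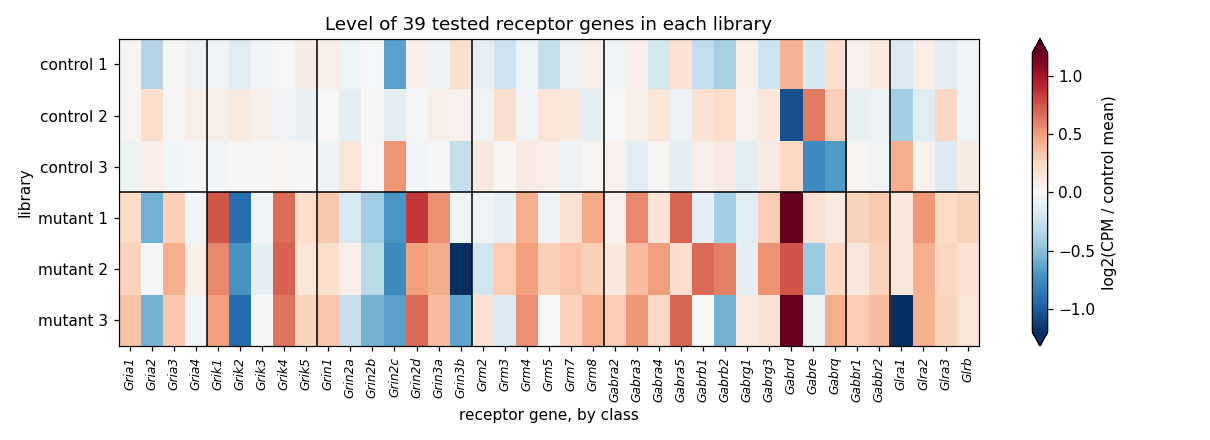
Each row is a library and each column 1 of 39 tested receptor genes, grouped by class. The colour gives log2 of the CPM over the control mean, from blue for lower to red for higher, with the scale ending at -1.2 and 1.2. The columns of *Grik2* and *Grin2b* are blue and those of *Grik1*, *Grik4*, *Grin2d*, *Grm4* and *Gabra3* are red in all 3 mutant libraries, whereas *Gabrb2* is red in mutant 2 and blue in mutant 1 and 3.

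GABA-A receptor genes lie in clusters of neighbours, whose log2 fold changes are given here side by side. On chromosome 7, the gamma subunit gene *Gabrg3* and the alpha subunit gene *Gabra5* gave 0.35 ± 0.15 and 0.55 ± 0.16. On chromosome 5, between 70751047 and 72149037, *Gabra4* gave 0.31 ± 0.12, *Gabrb1* 0.23 ± 0.20, *Gabra2* 0.17 ± 0.09 and *Gabrg1* -0.04 ± 0.10, none with an adjusted p under 0.05. With the Y-chromosome gene level as a covariate in edgeR, *Gabra4* gave 0.40 ± 0.08 (adjusted p = 0.0020) and *Gabrb1* 0.39 ± 0.09 (adjusted p = 0.0026). Both stayed under the fold limit of 0.5. In that fit *Gabra2* and *Gabrg1* had adjusted p-values of 0.157 and 0.690. On the X chromosome, between 72255999 and 72842602, *Gabra3* stood beside *Gabrq* (0.27 ± 0.30) and *Gabre* (-0.08 ± 0.42), which had at most 38 counts in a library. Differences between neighbours were not tested. *Gabra6*, the alpha subunit of maturing granule neurons, had 2 to 8 counts per library. *Gabrr1* and *Gabrr2*, neighbours on chromosome 4 that encode rho subunits of the retina, had at most 13 and 5 counts, *Gabrr3* at most 3 and *Gabrp* at most 2.

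Both GABA-B receptor genes were higher in every mutant library but were not called. *Gabbr1*, which binds GABA, had the highest FPKM of all receptor genes, at 54.9, 50.2 and 54.5 FPKM in control and 64.7, 58.2 and 66.1 FPKM in mutant libraries. On counts the log2 fold change was 0.24 ± 0.06 (adjusted p = 0.0159 in edgeR). *Gabbr2*, its obligatory partner that couples to G proteins, was at 25.9, 22.8 and 23.1 FPKM in control and 30.0, 28.9 and 31.1 FPKM in mutant libraries, with 0.32 ± 0.06 and an adjusted p of 0.00336.

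Among the 4 glycine receptor genes, *Glra2* and *Glrb* made up almost all of the FPKM. *Glra2*, the alpha subunit of the fetal and newborn brain, was at 36.9, 31.6 and 36.2 CPM in control and 50.01, 47.3 and 46.8 CPM in mutant libraries. The groups were apart, with a log2 fold change of 0.46 ± 0.08 and an adjusted p of 0.00264 in edgeR. Without control 1, *Glra2* was called higher at 0.50 ± 0.09. *Glrb*, the subunit that ties the receptor to gephyrin, gave 0.21 ± 0.07 (adjusted p = 0.0510). *Glra1*, the adult alpha subunit, had 4 to 20 counts and *Glra3* 13 to 19 counts per library, and their values of -0.28 ± 0.51 and 0.25 ± 0.32 carried no call.

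Summed over each class, the deposited FPKM values were higher in all mutant than in all control libraries for 5 of the 7 classes. Glycine receptors were at 22.5 ± 1.4 in control and 28.4 ± 1.3 in mutant libraries (log2 ratio 0.34), GABA-B receptors at 77.1 ± 4.0 and 93.0 ± 5.3 (0.27), and NMDA receptors at 37.7 ± 1.4 and 43.9 ± 2.8 (0.22). GABA-A receptors were at 70.9 ± 3.8 and 78.8 ± 2.0 (0.15) and kainate receptors at 82.7 ± 0.60 and 89.8 ± 2.1 (0.12). AMPA receptors, at 101 ± 7.1 and 104 ± 6.5, and metabotropic glutamate receptors, at 52.5 ± 5.3 and 57.2 ± 4.8, overlapped. The 5 separate classes reached the smallest p that the exact permutation test allows, 0.1, and 0.14 after adjustment over the 7 classes. The NMDA ratio rested largely on *Grin2d*, without which it was 0.03, and the kainate ratio without *Grik5* was 0.02. The glycine ratio was 0.20 without *Glra2*. Over the alternatives run, the ratio ranged from 0.13 to 0.27 for GABA-A and from 0.04 to 0.19 for metabotropic glutamate receptors.

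Subunits were also listed by the age at which they dominate. Among 7 genes of early subunits (*Grin2b*, *Grin2d*, *Grin3a*, *Gabra2*, *Gabra3*, *Gabra5* and *Glra2*), 6 had a log2 fold change above 0 with all mutant libraries above all controls, 1 was called higher and the median was 0.46. *Grin2b* was the exception, with all mutant libraries below the controls. Among the 7 late subunits, which include *Grin2a*, *Grin2c*, *Gabra6*, *Gabrd*, *Gabrb2* and *Glra1*, 6 were tested, none was called and the median was -0.08. In 2 of these 6, *Gabrd* among them, all mutant libraries were above all controls, and no late subunit was separated in the lower direction. Of all tested genes, 20.4% were separated in the higher and 20.1% in the lower direction. The difference between the lists was not tested, and the median over all tested genes was -0.01.

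The proteins that traffic, anchor or tune these receptors were examined in 3 lists of 50 genes in all, every one of them tested. Of these, 4 were called higher and 3 lower, where 3.03% and 3.63% of all tested genes were. Without the limit on fold, 16 and 4 passed an adjusted p of 0.01 in edgeR, where 6.55% and 7.24% of all tested genes did. Among 17 auxiliary proteins of glutamate receptors (median log2 fold change 0.26), *Shisa6*, *Cacng5* and *Syndig1* were higher and *Gsg1l* was lower. *Shisa6*, an AMPA receptor partner that slows desensitization, was at 78.6, 77.1 and 73.1 CPM in control and 107, 112 and 112 CPM in mutant libraries (0.53 ± 0.05, adjusted p = 0.000106 in edgeR). *Gsg1l*, an AMPA receptor partner with an inhibitory effect on the channel, was at 144, 134 and 139 CPM in control and 92.8, 91.4 and 97.1 CPM in mutant libraries (-0.57 ± 0.05, adjusted p = 6.9e-05). Both pairs of groups were far apart relative to their spread. In limma on log2(FPKM + 1), with or without a filter, *Shisa6* lay just under the fold limit at 0.497 and was not called. *Cacng5* gave 0.56 ± 0.12, and was no longer called without control 1 (0.62 ± 0.13), control 3 (0.44 ± 0.10), mutant 2 (0.48 ± 0.11) or mutant 3 (0.58 ± 0.14). Limma did not call *Cacng5* either, on log2(FPKM + 1) with or without a filter (adjusted p = 0.0234 and 0.0553) or on log2(FPKM + 0.1) (adjusted p = 0.0234). *Syndig1* gave 0.64 ± 0.10. The kainate receptor partner genes *Neto1* and *Neto2* lay on opposite sides, at 0.52 ± 0.16 (adjusted p = 0.0439) and -0.44 ± 0.08 (adjusted p = 0.00245), neither called.

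Among 18 postsynaptic scaffold genes (median 0.13), *Grip2*, which binds AMPA receptor tails, was at 23.3, 26.0 and 25.4 CPM in control and 42.6, 36.6 and 37.9 CPM in mutant libraries (0.65 ± 0.09, adjusted p = 0.000672 in edgeR). *Homer2*, which links metabotropic glutamate receptors to calcium stores, was at 168, 177 and 163 CPM in control and 106, 110 and 109 CPM in mutant libraries (-0.65 ± 0.05, adjusted p = 2.69e-05). The remaining 16 scaffold genes were not called. Among 15 partners of inhibitory receptors (median 0.15), *Kctd8*, an auxiliary subunit of GABA-B receptors, was lower, at 13.1, 12.7 and 14.0 CPM in control and 8.19, 7.23 and 9.03 CPM in mutant libraries (-0.70 ± 0.12, adjusted p = 0.00237). It missed the threshold without control 3 (-0.66 ± 0.14) or mutant 1 (-0.71 ± 0.14). The same held in limma on log2(FPKM + 1) without a filter, at -0.53 ± 0.09 (adjusted p = 0.0217). The chloride exporter gene *Slc12a5*, whose rise after birth makes GABA inhibitory, gave 0.45 ± 0.05 and the importer gene *Slc12a2* -0.17 ± 0.12, neither called.

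Part of the spread among receptor genes followed the Y-chromosome gene counts. With the level of these genes as a covariate in edgeR, whose own coefficient was examined after seeing the data, 5 of the 43 receptor genes had an adjusted p under 0.01 for that level, where 3.11% of all tested genes did. All 5 were lower in libraries with Y-chromosome gene counts, as were 536 of the 545 genes that passed among all tested genes. The log2 differences were -0.85 for *Gabrb2*, -0.60 for *Gabrb1*, -0.54 for *Gria2*, -0.41 for *Grm3* and -0.37 for *Grm5*. *Gabrb2* was at 24.9, 38.1 and 35.2 CPM in control 1, 2 and 3 and 24.7, 49.7 and 22.1 CPM in mutant 1, 2 and 3, so that the 3 libraries with Y-chromosome gene counts were lowest in both groups. Of the libraries without such counts, only mutant 2 is a mutant, so its own deviation and the split cannot be told apart among mutants. Control 1 is the only control with such counts, so the same holds among controls. The 4 called genes kept their calls with this covariate. Between libraries with Y-chromosome gene counts, the log2 ratio of mutant to control was 0.67 for *Grik1*, -0.78 for *Grik2*, 0.65 for *Grik4* and 0.71 for *Grin2d*. Between those without, it was 0.55, -0.78, 0.71 and 0.52 in the same order. Each of these ratios, and so any difference between them, rests on 1 library in 1 of the groups compared. No receptor gene passed an adjusted p of 0.05 for a difference between these ratios in edgeR, where 0.0114% of all tested genes did. Before adjustment, 2 receptor genes, *Grin2c* and *Gabrb2*, were under 0.05 in that fit. Of the 5 X-linked receptor genes, *Gria3*, *Gabra3* and *Glra2* passed an adjusted p of 0.01 in the group comparison, and *Gabre* and *Gabrq* did not.

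**Figure D5:**
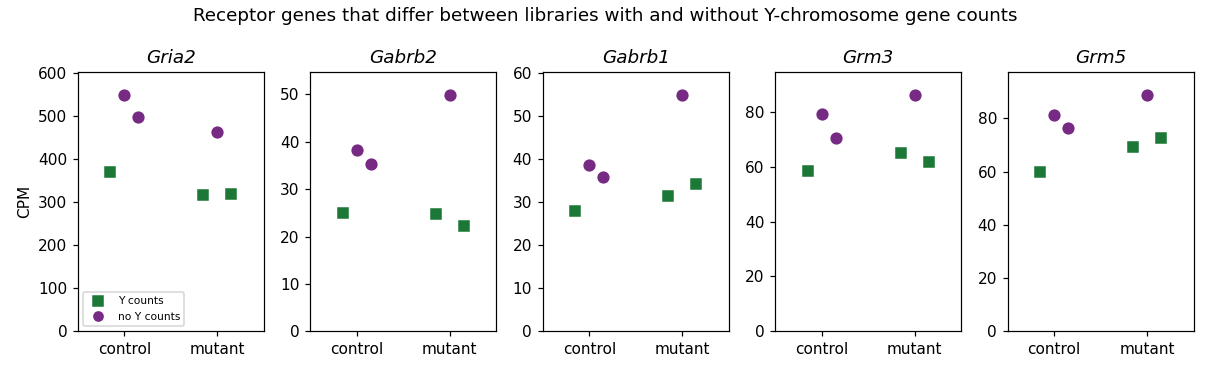
CPM from 0 on the y axis for the 5 receptor genes with an adjusted p under 0.01 for the Y-chromosome gene level, by group, with green squares for the 3 libraries with such counts and purple circles for the 3 without. The genes were chosen for this pattern, and in each panel the squares lie below the circles of the same group.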

How the data were processed

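Bulk mRNA of 6 cerebellar libraries of postnatal day 1 mice was grouped by the labels alone. The authors deposited raw counts per gene, made by aligning filtered reads to mm10 with HISAT2 2.0.5 and counting with featureCounts 1.5.0-p3, and FPKM values that the authors computed from counts and gene length. Strand setting, annotation release and handling of multi-mapping reads are not given in the sources used here, so 19 receptor genes that share exon bases with another gene may share reads. GENCODE M21 (GRCm38) had the same start, end and exon length for all 49 receptor genes.

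Log2 fold changes came from edgeR 4.0.16 in R 4.3.3 (filterByExpr, TMM, glmQLFit, glmQLFTest), with Benjamini-Hochberg adjustment over 17505 genes and a common dispersion of 0.0105. Class sums and shares (for genes with a mean share of at least 5%) were compared by exact two-sided permutation tests. DESeq2 1.42.0, limma 3.58.1 on log2(FPKM + 1) and log2(FPKM + 0.1), other scalings, filters and thresholds, a replicate block, a Y-chromosome gene covariate and each library left out in turn were the alternatives. Same-group libraries differed by more than sampling noise (chi-square per gene 3.64 to 10.1), so none was a copy. Fits were tested on simulated data. Per-library values are given for called receptor genes and the most abundant of a class by FPKM, other members by value or range (some members are counted but not reported singly here), and of each partner list at most the 3 called genes of smallest p in each direction. *Neto1*, *Neto2*, *Slc12a2* and *Slc12a5* were named after their values were seen. Members and lists were chosen with earlier results of these data known. Promoters are from RefSeq (GRCm38.p6), which had none for *Grik1* in the table used.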

Additional observations from a re-analysis of the deposited data

How the results depend on the processing

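The calls of *Grik1*, *Grik4*, *Grin2d* and *Grik2* held in 15 of 16 other fits, and limma on log2(FPKM + 1) without a filter kept *Grik4* and *Grik2* alone (1 higher). Receptor genes called higher numbered 5 with library size alone and 5 without a filter on low counts, against 590 of 17505 and 730 of 32263 tested genes. They numbered 12 and 16 at an adjusted p of 0.01 and 0.05 without a fold limit, against 6.55% and 12.2% of all tested genes. Without genes that share exon bases, an alternative chosen after seeing the data, 1 (*Grik1*) was left. That alternative drops *Grin2d* and also *Grik4*, which shares 59 exon bases (0.99%) with *Gm24420*, a gene at 0 counts in every library. Receptor genes called lower numbered 2 without a filter (824 of 32263 tested genes) and 2 under both looser thresholds (7.24% and 12.9% of all tested genes). With 1 library left out, 3 to 6 receptor genes were called higher and 1 to 2 lower, against 349 to 569 and 492 to 778 of all tested genes. Partner genes called higher numbered 2 and 1 in limma on log2(FPKM + 1) with and without a filter, and 16 and 21 at an adjusted p of 0.01 and 0.05 without a fold limit, where 4 and 5 were lower. With the replicate number as a block, 3 receptor genes were again higher and 1 lower, and 5 partner genes higher and 3 lower. Whether the replicate numbers pair the samples cannot be decided from 3 libraries a group. Deviations of same-numbered libraries correlated at 0.24, 0.26 and -0.16, and mutant 3 correlated best with control 1 (0.27). Uncalled genes near 0 changed sign. *Gria4* was at 0.0036 in DESeq2 and with its size factors, 0.016 with library size alone, 0.0017 without a filter, 0.0024 with at least 10 counts in every library, 0.029 with the Y-chromosome gene covariate, 0.0042 in limma on log2(FPKM + 1) with or without a filter and 0.0044 on log2(FPKM + 0.1). *Gabrb2* was at 0.18 with the covariate. With 1 library left out, log2 fold changes ranged from -0.034 to 0.038 for *Gria4*, -0.14 to 0.078 for *Grm2*, -0.12 to 0.14 for *Grm3*, -0.040 to 0.17 for *Grm5*, -0.048 to 0.38 for *Gabrb1*, -0.48 to 0.18 for *Gabrb2*, -0.12 to 0.0062 for *Gabrg1*, -0.35 to 0.36 for *Gabre* and -0.56 to 0.13 for *Glra1*. The AMPA class ratio was -0.13 without *Gria1*. Causes were not tested. With 3 libraries a group and 2 to 38 counts per library, no direction can be read for *Gabra6*, *Gabre*, *Gabrq*, *Glra1*, *Glra3* and *Grin3b*.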
